A study of Mus musculus with 15 samples.

Results

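Solute carriers are membrane proteins that move ions, nutrients and metabolites across the plasma membrane and across the membranes of organelles, and the genes described here are those whose symbol starts with Slc and a digit or with Slco. The rule was applied to every gene with a row in any of the 4 deposited gene tables, and it found 61 genes among 4567, of which 4423 carried a symbol. The study transplanted T cells from mice of the strain C57Bl6 into allogeneic Balb/C recipients to induce acute graft-versus-host disease, and sorted spleen T cells by a fluorescent probe for active caspase-1 (Flica). RNA from the sorted cells was sequenced in 15 libraries, 3 for each of 5 groups. The CD4 control and CD8 control groups were untreated C57Bl6 T cells of day 0, negative for the probe and pooled from 1 to 2 mice. The CD4 Flica-negative, CD8 Flica-negative and CD8 Flica-positive groups were taken on day 7 from 8 to 12 mice, each given 8 Gy of irradiation, 10 × 10⁶ bone marrow cells and 0.75 to 1 × 10⁶ C57Bl6 T cells, without probe signal in the first 2 groups and with it in the last. Donors and recipients were 6 to 8 weeks old. The day 7 groups differed from the controls in irradiation, host, pooling and time together, so these cannot be told apart, and CD4 Flica-positive cells were not analysed here.

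Resting T cells take up few amino acids and little glucose, and activation is known to raise the transport of these substrates to feed growth and division. Solute carriers are grouped in families by sequence, and the substrate of a family only partly predicts that of each member, so the classes used below (amino acid, sugar, inorganic ion, nucleoside, nucleotide sugar, organic anion, organic cation, mitochondrial carrier and other) are a reading aid. In spleen, iron and metal carriers are best known from macrophages, which recycle iron from red cells, and cystine and lactate carriers from activated myeloid cells and lymphocytes.

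A gene entered the tables only if it had passed the authors' limits in at least 1 of 4 comparisons, and 46 of the 61 genes were listed for Flica-positive cells against CD8 control, 33 for CD8 Flica-negative cells against control, 22 for CD4 Flica-negative cells against control and 17 for Flica-positive against Flica-negative cells. For this reason the tests below describe size and spread and are not independent evidence that a listed gene changed. The best known carriers of activated T cells, Slc2a1, Slc2a3, Slc7a5, Slc3a2 and Slc1a5, had no row and were not analysed here. Of the 61 genes, 26 had counts in all 15 libraries and 31 averaged 50 normalized counts or more, which are counts divided by the size factor of the library. Summed over the 4567 listed genes the libraries held 2143579 to 11046043 counts, which is not their full depth. The 61 genes held 10629 to 26320 counts a library. One gene, Slc36a3os, is annotated as a noncoding RNA antisense to Slc36a3, and Slc9a3r2 encodes a scaffold protein that binds transporters, so neither is a carrier. For brevity the counts below call all 61 genes carriers, with Slc36a3os and Slc9a3r2 included. For 26 of the 61 genes another annotated gene overlaps the same region, and the sources used here do not say whether reads were counted by strand, so reads of overlapping genes may be mixed.

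By the edgeR quasi-likelihood test with Benjamini-Hochberg adjustment over all 4567 genes at 0.05, 38 of the 61 carriers were called in CD8 Flica-negative cells against CD8 control, beside 66.5% of all listed genes, with 21 (34.4%) higher and 17 (27.9%) lower, beside 37.5% and 29%. In CD4 cells 30 carriers were called beside 57.6%, with 16 (26.2%) higher and 14 (23%) lower than in control, beside 31.1% and 26.5%. Flica-positive cells had 46 called against CD8 control beside 70.7%, with 32 higher (52.5%) and 14 lower (23%), beside 46.8% and 23.9%. Against Flica-negative CD8 cells they had 20 called beside 23.2%, with 19 higher (31.1%) and 1 lower (1.64%), beside 20.6% and 2.63%. These shares lay near those of all listed genes, with the largest gap in the last comparison. The median log2 fold change of the 61 genes was 1.10, 0.59, 2.28 and 0.82 in the 4 comparisons in that order, beside 0.66, 0.06, 2.04 and 0.38 over all listed genes. With genes whose group had no count set at their bound, the medians of the carriers were 0.64, 0.26, 2.28 and 0.74. The comparisons of Flica-positive and of CD8 Flica-negative cells with CD8 control share the control libraries. Of the 61 genes 59 were called in at least 1 comparison, and Slc16a8 and Slc9b2 in none.

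The scale between the groups mattered for Flica-positive cells. When library scaling was set by TMM over the listed genes, the median of all listed genes moved by -1.65 on the log2 scale against CD8 control and by -0.49 against Flica-negative cells, and the carriers split into 19 higher and 20 lower in the former comparison and 13 higher and 4 lower in the latter, beside 1232 and 1609 and then 734 and 452 of the 4567 listed genes. DESeq2 size factors over the listed genes gave 17 higher and 20 lower, and again 13 higher and 4 lower, beside 1155 and 1685 and then 734 and 476 of all listed genes. The median of the carriers became 0.57 with TMM and 0.41 with DESeq2 size factors against CD8 control, and 0.21 with either against Flica-negative cells. For CD8 Flica-negative cells against control it was 0.72 and 1.18, and for CD4 cells 0.28 and 0.54. Sizes printed below are those of the main fit unless stated. TMM also moved the median by -0.42 in CD8 Flica-negative cells against control, where the carriers were 17 higher and 19 lower, beside 1515 and 1448 of all listed genes. There DESeq2 size factors moved it by 0.08 and gave 21 carriers higher and 16 lower, beside 1758 and 1284 of all listed genes. The 6 carriers whose rise over Flica-negative cells was not called with TMM were Slc27a4, Slc2a6, Slc31a1, Slc38a5, Slc43a3 and Slc8a1. Against CD8 control the rises of Slc15a3, Slc1a4, Slc25a33, Slc27a4, Slc2a8, Slc31a1, Slc31a2, Slc35e4, Slc35f5, Slc6a20a, Slc8b1, Slc9a3r2 and Slc9a5 in Flica-positive cells were not called with TMM, nor those of Slc31a1, Slc36a3os, Slc39a4 and Slc9a5 in CD8 Flica-negative cells or that of Slc2a6 in CD4 Flica-negative cells. With DESeq2 size factors the Flica-positive value against CD8 control turned from 1.7 to -0.158 for Slc25a33 and went from 1.87 to 0.000122 for Slc2a8 on the log2 scale, and neither was called. Each named call was recomputed under up to 12 alternative settings, and up to 15 for the difference between the responses, which were other scalings, another test, a filter, other models and the omission of each library in turn. Without CD8 Flica-negative replicate 2 the count of carriers higher in Flica-positive over Flica-negative cells was 10.

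Slc40a1 encodes ferroportin, the exporter that releases iron from cells. Its normalized counts were 608, 574 and 579.99 in the Flica-positive libraries, 29.8, 39.2 and 12.9 in the Flica-negative CD8 libraries and 20.3, 23.3 and 8.66 in CD8 control, while the CD4 Flica-negative libraries held 14.1, 8.93 and 2.4 and CD4 control 8.93, 7.74 and 8. All 3 Flica-positive libraries were far above the other 12, which held 39.2 or fewer. The rise over Flica-negative cells was 4.43 on the log2 scale (SE 0.42, edgeR adjusted p = 7.7e-06) and that over CD8 control 5.06 (SE 0.47, edgeR adjusted p = 3.1e-05). Over the alternatives the value against CD8 control ranged from 3.2 to 5.33.

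Slc11a1, a divalent metal transporter of phagosome membranes, followed the same order with 256, 409.7 and 484 normalized counts in Flica-positive cells, 32, 33.6 and 27.6 in Flica-negative cells and 7.05, 16.1 and 17.3 in CD8 control. Again no Flica-positive library came near the range of another group. In Flica-positive cells Slc11a1 exceeded the Flica-negative level (log2 fold change 3.62, SE 0.41, edgeR adjusted p = 2.9e-05) and that of control (log2 fold change 4.82, SE 0.57, edgeR adjusted p = 1.2e-04). The value against control ranged from 2.94 to 5.04 over the alternatives. In CD4 cells Slc11a1 stayed at 12.3 or below in every library.

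The copper carriers Slc31a1, which imports copper at the plasma membrane, and its relative Slc31a2 were less far apart between groups. Slc31a2 had 246, 549 and 502 normalized counts in Flica-positive cells, 117, 93.3 and 162 in Flica-negative and 122, 127 and 16.3 in CD8 control cells. Flica-positive libraries were above all others, by 1.80 (SE 0.39) on the log2 scale against Flica-negative cells (edgeR adjusted p = 0.00449). Slc31a1 had 164, 224 and 204 in CD8 control, 343, 409.6 and 512 in CD8 Flica-negative and 709, 739 and 1169.5 in Flica-positive libraries. Its rise of 1.05 (SE 0.28) over Flica-negative cells (edgeR adjusted p = 0.0156) was not called in 5 of 12 alternatives. Slc31a1 was also higher in CD8 Flica-negative cells than in control (log2 fold change 1.10, SE 0.29, edgeR adjusted p = 0.00697), and its gene overlaps Cdc26 on the opposite strand.

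The zinc importer Slc39a4 took another course. CD4 cells went from 92.7, 119.9 and 115 normalized counts in control to 465, 598 and 533 on day 7, and CD8 cells from 158, 186 and 139 to 385, 417 and 332 without the probe signal, with no overlap in either lineage. The rise was 2.28 (SE 0.26) in CD4 and 1.23 (SE 0.29) in CD8 cells on the log2 scale. Flica-positive libraries held 224, 211 and 158, overlapped CD8 control and lay below all Flica-negative libraries. Slc39a4 was the single carrier that the main edgeR fit called lower in Flica-positive cells than in their Flica-negative counterparts (log2 fold change -0.94, SE 0.31, edgeR adjusted p = 0.0451). That call was lost in 6 of 12 alternatives, each of them a fit without 1 library. Its relative Slc39a2, with 38.2 normalized counts or fewer in every library, was lower in CD4 Flica-negative than in CD4 control cells.

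Of 21 genes listed as partners of these transporters, 9 had a row, and 7 of the 9 were higher in CD8 Flica-negative cells than in control, 6 in CD4 Flica-negative cells, 8 in Flica-positive cells against control and 4 against Flica-negative cells, with none lower. The shares of all listed genes that were higher are 37.5%, 31.1%, 46.8% and 20.6% in that order. The most abundant was the metal-binding Mt1, at 11.2, 0 and 0 normalized counts in CD4 control, 361, 419 and 422 in CD4 Flica-negative, 0.881, 0 and 0 in CD8 control, 1126, 1106 and 1665 in CD8 Flica-negative and 1522, 1612 and 1613 in Flica-positive libraries. Hmox1, the enzyme that frees iron from heme, had 18.5, 2.69 and 24 in CD8 control, 205, 297 and 225 in CD8 Flica-negative and 582, 758 and 549 in Flica-positive libraries. It also stands in the macrophage list below, as Rhag and Kel do in the erythroid list. Unlike Slc40a1, Hmox1 was already above control in Flica-negative cells, in all 3 libraries.

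The summed levels of neutrophil, macrophage and mast cell markers were highest in the same 3 libraries as Slc40a1 and Slc11a1. All 14 neutrophil markers of a list of 14 had rows, and their summed normalized counts were 144, 80.3 and 65.8 in CD4 control, 2670.4, 4712 and 7795 in CD4 Flica-negative, 118, 60.9 and 74 in CD8 control, 11864, 18188 and 18053 in CD8 Flica-negative and 200517, 357705 and 387729 in Flica-positive libraries, with Ngp the most abundant. The 14 listed of 19 macrophage markers, led by Lyz2, summed to 425, 307 and 294 in CD4 control, 1070.3, 1265 and 1402 in CD4 Flica-negative, 339, 231 and 174 in CD8 control, 1635, 2873 and 2578 in CD8 Flica-negative and 18140.4, 36651 and 33229 in Flica-positive libraries. The 7 listed of 8 mast cell and basophil markers, led by Hdc, summed to 75.9, 56.1 and 41.8 in CD4 control, 162, 203 and 262 in CD4 Flica-negative, 70.5, 60.9 and 109.6 in CD8 control, 247, 278 and 176.9 in CD8 Flica-negative and 2739.9, 4588 and 4134 in Flica-positive libraries. None of these markers was at 0 in all 3 Flica-positive libraries, whereas Elane, Ly6g, Camp, C1qa, Gata2, Mcpt8, Ms4a2 and Prss34 were at 0 in all 3 CD8 control libraries.

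The 13 listed of 21 erythroid markers, led by Hba-a1, summed to 9374, 9334 and 2154 in CD4 control, 2221, 869 and 501 in CD4 Flica-negative, 7423, 8222 and 2044 in CD8 control, 4000.4, 714 and 412 in CD8 Flica-negative and 114775, 8409 and 2267 in Flica-positive libraries. The 5 listed of 9 megakaryocyte markers, led by Itga2b, summed to 165, 110.2 and 113 in CD4 control, 49.4, 21.2 and 80.1 in CD4 Flica-negative, 110.1, 116 and 126 in CD8 control, 25.6, 48.5 and 63.9 in CD8 Flica-negative and 328, 399 and 605 in Flica-positive libraries. The endothelial list had 1 of 8 genes, Egfl7, at 6.7, 14.5 and 5.34 in CD4 control, 10.6, 6.7 and 0 in CD4 Flica-negative, 7.05, 4.48 and 0 in CD8 control, 9.59, 36.4 and 6.9 in CD8 Flica-negative and 32.8, 40 and 62.2 in Flica-positive libraries. The 5 listed of 9 dendritic cell markers, led by Itgax, summed to 669.98, 628 and 586 in CD4 control, 2139, 2323 and 1849.99 in CD4 Flica-negative, 759, 599 and 786 in CD8 control, 11885, 11295 and 9024 in CD8 Flica-negative and 8971, 9363 and 8444 in Flica-positive libraries, where Batf3, Irf8 and Flt3 were higher and Itgax lower than in Flica-negative cells. The cells had been sorted as CD4 or CD8 T cells. Whether other cell types contributed to the counts of Slc40a1, Slc11a1 and the other carriers that were highest in Flica-positive cells was not tested. Fewer cells of a type and less RNA per cell cannot be told apart in these bulk libraries.

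**Figure D1:**
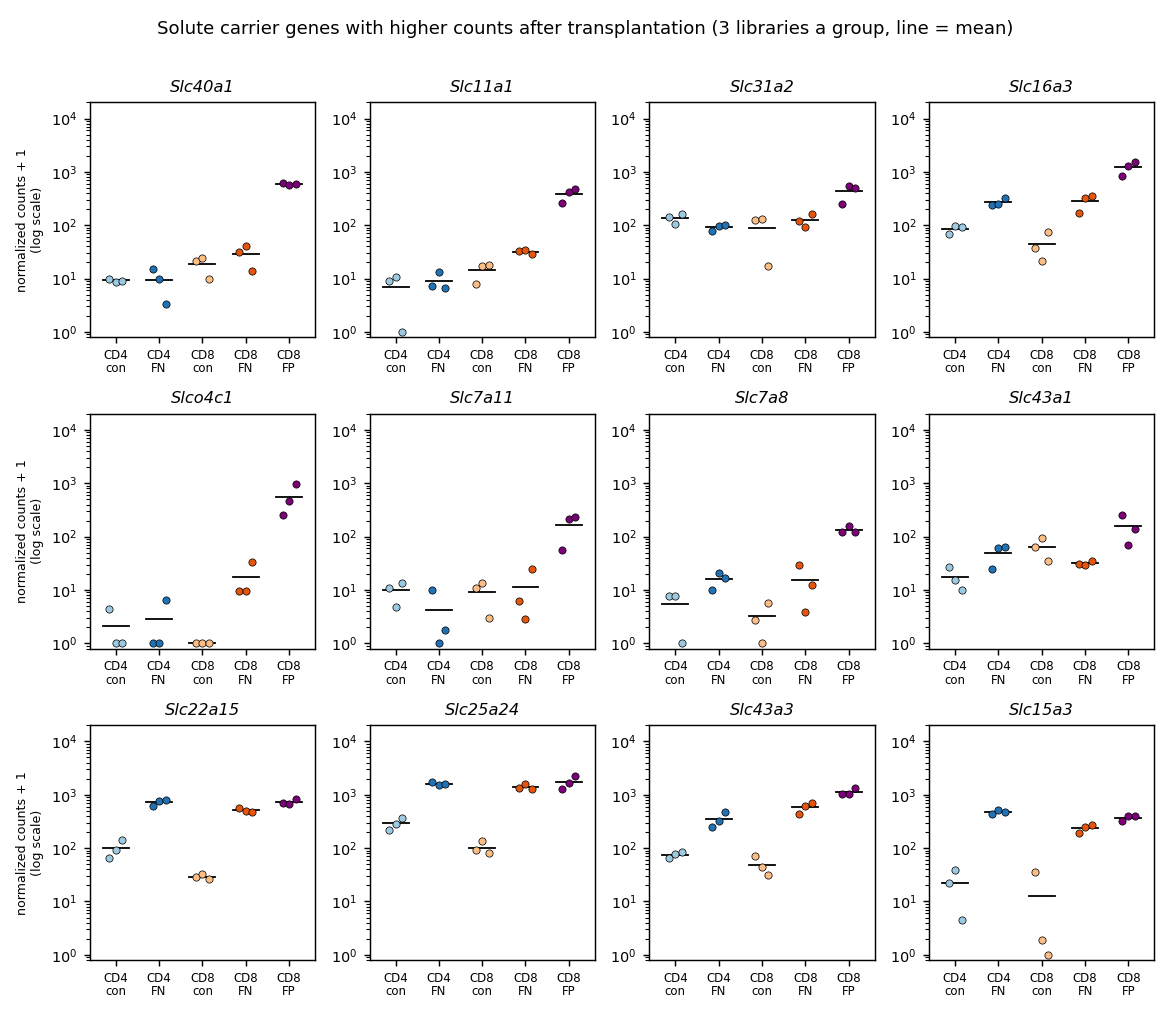
Normalized counts plus 1 (log axis) of 12 carrier genes in each of the 15 libraries, with 1 point a library and a line at the group mean (con, control; FN, Flica-negative; FP, Flica-positive). Slc40a1 and Slc11a1 stand apart in the 3 Flica-positive libraries, while Slc22a15, Slc25a24 and Slc15a3 are high in all 9 libraries of day 7.

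Among carriers of other inorganic ions, Slc12a7 had the most counts of the 61 genes. It encodes a cotransporter that lets potassium and chloride leave the cell together. CD8 control libraries held 11904, 12087 and 12524 normalized counts, CD8 Flica-negative 1904, 1839 and 1671 and Flica-positive 1332, 1081 and 1201. CD4 control libraries held 6813, 6633 and 7656 and CD4 Flica-negative 1830.2, 2090.4 and 1781. The control groups differed from each other and from every library of day 7, and the CD4 and CD8 Flica-negative libraries overlapped. The fall was -2.75 (SE 0.13) in CD8 Flica-negative cells (edgeR adjusted p = 6.8e-08), -3.34 (SE 0.19) in Flica-positive cells (edgeR adjusted p = 4.7e-06) and -1.89 (SE 0.16) in CD4 Flica-negative cells (edgeR adjusted p = 5.1e-07), all on the log2 scale. The Flica-positive value ranged from -5.2 to -3.26 over the alternatives.

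Slc8b1, the sodium-calcium exchanger of mitochondria, rose on day 7 in both lineages. Its normalized counts were 142, 137 and 125 in CD4 control and 642, 757 and 666 in CD4 Flica-negative cells, and 196, 228 and 190.4 in CD8 control, 752, 697 and 771 in CD8 Flica-negative and 941, 886 and 1179 in Flica-positive libraries. Every day 7 library exceeded every control library, by 2.35 (SE 0.23) in CD4 and 1.85 (SE 0.24) in CD8 Flica-negative cells. Its plasma membrane relative Slc8a1 had 9.59, 15.9 and 8.63 in CD8 Flica-negative and 30.5, 84.8 and 92.1 in Flica-positive cells, and no group of the other 3 exceeded 2.23 in any library. Its rise in Flica-positive over Flica-negative cells was lost in 9 of 12 alternatives. Slc24a3, a potassium-dependent sodium-calcium exchanger, had 10.6, 56.5 and 68.2 in Flica-positive and at most 2.8 in the other CD8 libraries. Replicate 3 of CD4 control and of CD4 Flica-negative cells held 17.8 and 24, above the lowest Flica-positive library. The call of Slc24a3 in Flica-positive over Flica-negative cells was lost in 6 of 12 alternatives.

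Slc9a5, a sodium-proton exchanger, rose in CD4 cells from 21.2, 42.5 and 39.1 to 109, 126 and 162 normalized counts and in CD8 cells from 61.7, 29.6 and 71.2 to 87.4, 186 and 284. Flica-positive libraries spread widely, at 353, 245 and 67, and overlapped CD8 control. The bicarbonate carrier Slc4a10 had 36.1, 16.1 and 64.4 in CD8 control and was at 0 in all 3 Flica-positive libraries, at least 11-fold lower against a floor of 3 counts a library. Slc26a1, a sulfate carrier whose gene overlaps Idua on the opposite strand, was lower on day 7 in both lineages, from 65.9, 47.4 and 101 to 24.7, 0 and 0 in CD4 and from 71.4, 87.8 and 107 to 20.2, 7.46 and 11.2 in CD8 cells. The CD4 call was lost in 4 of 12 alternatives and the CD8 call in 1 of 12, the fit of all 5 groups. Slc9b2 was not called in any comparison, and Slc9a3r2 stayed at or below 64.7 normalized counts in every library.

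**Figure D2:**
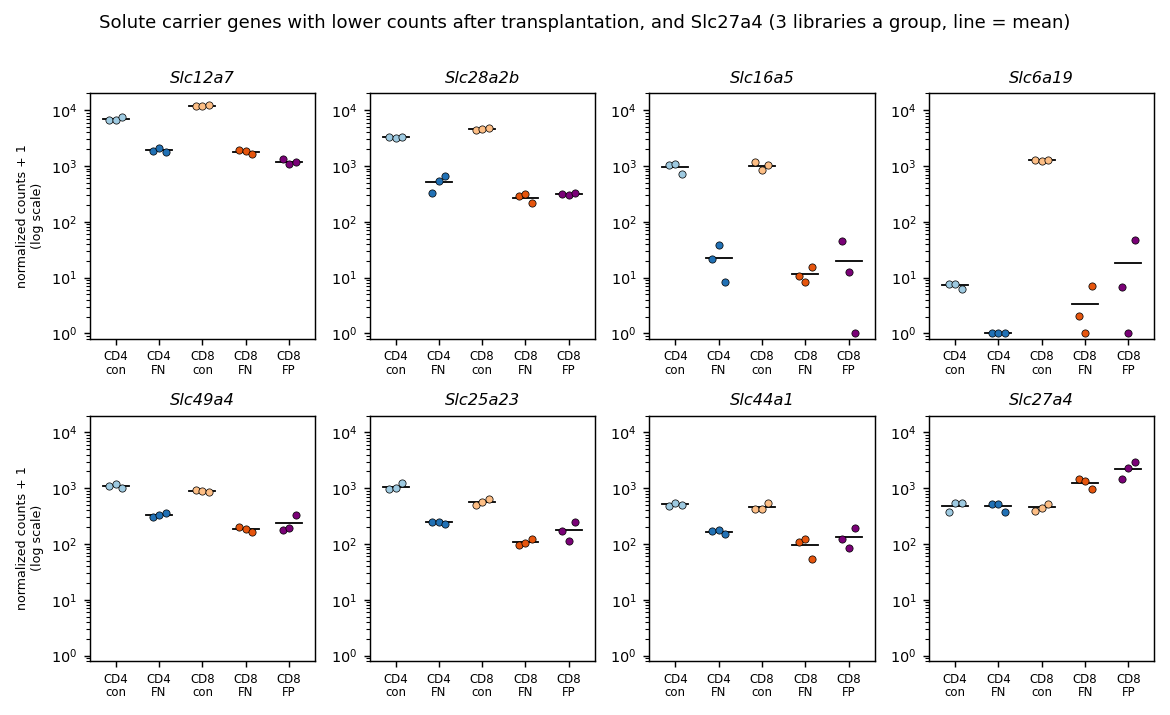
Normalized counts plus 1 (log axis) of 8 carrier genes in each of the 15 libraries, with 1 point a library and a line at the group mean (con, control; FN, Flica-negative; FP, Flica-positive). Slc12a7, Slc28a2b and Slc16a5 are lower in all 9 libraries of day 7 than in any of the 6 control libraries, Slc6a19 is high in CD8 control alone, and Slc27a4 is raised in CD8 but not in CD4 libraries of day 7.

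Organic anion carriers split by direction within 1 family. Slc16a3 and Slc16a5 both belong to the monocarboxylate transporters, and Slc16a3 is the carrier that exports lactate from glycolytic cells. Slc16a3 had 67, 95.7 and 90.7 normalized counts in CD4 control, 242, 253 and 328 in CD4 Flica-negative, 36.1, 20.6 and 72.1 in CD8 control, 170.5, 328 and 349.5 in CD8 Flica-negative and 832, 1286 and 1509 in Flica-positive libraries. The 3 CD8 groups stood in that order without overlap, and the CD4 libraries separated by day. The rise was 2.72 (SE 0.51) from CD8 control to Flica-negative cells (edgeR adjusted p = 9.2e-04), 2.09 (SE 0.32) from Flica-negative to Flica-positive cells (edgeR adjusted p = 3.5e-04) and 1.70 (SE 0.31) in CD4 cells (edgeR adjusted p = 5.4e-04).

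Slc16a5 went the other way. It had 1038, 1072 and 712 normalized counts in CD4 control and 1166, 832 and 1059 in CD8 control, against 20.3, 37.9 and 7.21 in CD4 Flica-negative, 9.59, 7.46 and 14.7 in CD8 Flica-negative and 44.6, 11.8 and 0 in Flica-positive libraries. Each day 7 library was far below the lowest control library. The fall was -5.47 (SE 0.46) in CD4 and -6.56 (SE 0.36) in CD8 Flica-negative cells on the log2 scale (edgeR adjusted p = 5.8e-07 and 1.7e-07). Gm11695 lies on the opposite strand of the same region and was listed too. The other 2 members of the family, Slc16a7 and Slc16a8, stayed at or below 43.2 in every library, and only Slc16a7 was called, lower in CD8 Flica-negative cells where all 3 libraries were at 0.

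Of 21 glycolysis genes 7 had rows. Hk2, Pgam1, Tpi1 and Gapdh were higher and Pdk1 and Ldhb lower in CD4 and CD8 Flica-negative cells than in control, and Hk3 was higher in CD8 cells, beside 31.1% of all listed genes higher in CD4 and 37.5% in CD8 cells and 26.5% and 29% lower. Against Flica-negative cells, Flica-positive cells were higher in Pgam1, Tpi1 and Hk3, beside 20.6%. Tpi1 had 840.5, 687 and 829.9 normalized counts in CD8 control, 1762, 2294 and 2694 in Flica-negative and 3467, 4094 and 3644 in Flica-positive cells, in the same order of groups as Slc16a3.

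Carriers of the organic anion transporting polypeptide family, which take up hormones, bile acids and drugs, included Slco4a1, Slco4c1 and Slco2b1. Slco4c1 was the carrier with the largest rise in Flica-positive over Flica-negative cells among genes with a mean of at least 50. It was at 0 in all 3 CD8 control libraries and had 8.52, 8.4 and 31.9 normalized counts in CD8 Flica-negative and 249.7, 463 and 966 in Flica-positive libraries. The groups did not overlap. The rise over Flica-negative cells was 5.07 (SE 0.65) on the log2 scale (edgeR adjusted p = 8.0e-05). On the scale of the authors' size factors the gene was higher than in CD8 control at least 204-fold in Flica-positive and at least 5.95-fold in Flica-negative cells, with the floor at 3 counts a library. These bounds were not recomputed with TMM, which moved the median of all listed genes by -1.65 and -0.42 on the log2 scale in these comparisons. CD4 libraries held 5.61 or fewer.

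Slco4a1, by contrast, rose in all day 7 groups. CD4 cells went from 82.6, 111 and 78.3 to 423, 482 and 699 normalized counts, and CD8 cells from 37.9, 46.6 and 67.3 in control to 532, 626 and 904 without and 875, 956 and 880.2 with the probe signal. Day 7 libraries were all above the controls, and the CD8 groups of day 7 overlapped. The rise was 2.56 (SE 0.29) in CD4 and 3.76 (SE 0.35) in CD8 Flica-negative cells on the log2 scale. Slco2b1 was found in Flica-positive cells at 34, 27.1 and 65.8 and was at 0 in all 3 CD8 Flica-negative libraries, at least 14.8-fold lower. The bile acid carrier Slc10a1 was at 0 in all 3 Flica-positive libraries, beside 41.4, 6.27 and 21.2 in CD8 control.

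Of the 13 genes of the amino acid class, 4 were higher and none lower in Flica-positive cells than in their Flica-negative counterparts, beside 20.6% and 2.63% of all listed genes. Slc7a11, the cystine importer that exchanges cystine for glutamate, had 55.1, 209.5 and 232 normalized counts in Flica-positive cells, 5.33, 1.87 and 24.2 in Flica-negative and 9.69, 12.5 and 1.92 in CD8 control libraries. All 3 Flica-positive libraries were highest, with replicate 1 well below the others. The rise was 3.95 (SE 0.89) over Flica-negative cells (edgeR adjusted p = 0.00599) and 4.34 (SE 0.94) over control (edgeR adjusted p = 0.00381). Over the alternatives these values ranged from 3.41 to 5.49 and from 2.46 to 4.79. Slc7a8, a carrier of large neutral amino acids, had 119.6, 160.1 and 119.6 in Flica-positive, 28.8, 2.8 and 11.2 in Flica-negative and 1.76, 0 and 4.81 in control cells, a rise of 3.22 (SE 0.77) and 5.86 (SE 1.09).

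A further 2 carriers in this class were higher in Flica-positive cells than in their Flica-negative counterparts. Slc43a1, another carrier of large neutral amino acids, had 252, 69.5 and 141 normalized counts against 29.8, 28 and 34.5 in Flica-negative cells (log2 fold change 2.32, SE 0.59, edgeR adjusted p = 0.0127), but CD8 control held 64.3, 94 and 34.6 and overlapped with Flica-positive cells. Its call over Flica-negative cells was lost in 2 of 12 alternatives. The glutamine carrier Slc38a5 had 57.4, 37.7 and 20.3 in Flica-positive and at most 9.7 in any other library, and its rise over Flica-negative cells was not called in 9 of 11 alternatives. The betaine and GABA carriers Slc6a12 and Slc6a13 were at 0 in all 3 CD8 control libraries and had 22.3, 16.5 and 72.9 (Slc6a12) and 28.1, 9.42 and 67 (Slc6a13) in Flica-positive cells. Slc6a20a, which carries proline, and the glycine carrier Slc6a9 were at 0 in 1 Flica-positive library each, with 52.8, 0 and 19.1 for the former and 87.9, 63.6 and 0 for the latter.

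Slc7a11 is a textbook target of the amino acid response, in which the factor Atf4 binds the element TGATGCAA. The 250 bases before the RefSeq start of Slc7a11, chr3:50443614-50443863 on the minus strand of build GRCm38.p6, are shown because they hold this element on both strands, marked in capitals.
Slc7a11: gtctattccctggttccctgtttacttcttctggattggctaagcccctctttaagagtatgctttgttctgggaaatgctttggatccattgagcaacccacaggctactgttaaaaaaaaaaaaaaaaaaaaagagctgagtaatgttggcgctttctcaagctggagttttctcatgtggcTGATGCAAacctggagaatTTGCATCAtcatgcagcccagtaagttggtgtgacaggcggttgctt
The letters occurred in this window once in each direction. Of 32851 RefSeq promoter windows of this length 0.791% held TGATGCAA on either strand, and of 49 carriers with a window Slc7a11 was the 1 that did. A match of letters describes the sequence and says nothing about binding. Of 26 genes of amino acid metabolism 5 had rows, and Asns and Bcat1 were higher in both Flica-negative groups than in control, and all 5 were higher in Flica-positive cells than in control, beside 31.1% (CD4), 37.5% (CD8) and 46.8% of all listed genes. Asns, another gene of the amino acid response, had 1.76, 0 and 0 normalized counts in CD8 control, 138, 440.4 and 331 in CD8 Flica-negative and 467, 905 and 506 in Flica-positive cells. Unlike Slc7a11, Asns was higher in all 3 Flica-negative than in all 3 control libraries.

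Slc6a19, a carrier of neutral amino acids best known from kidney and intestine, differed between the lineages before transplantation. It had 1257, 1228 and 1285 normalized counts in CD8 control libraries and 6.7, 6.77 and 5.34 in CD4 control libraries. On day 7 it was at 1.07, 0 and 6.04 in CD8 Flica-negative, 5.86, 0 and 45.4 in Flica-positive and 0 in all 3 CD4 Flica-negative libraries. Only the CD8 control libraries of day 0 held more than 45.4. The difference between the control lineages was -7.63 (SE 0.28) on the log2 scale for CD4 against CD8 cells (edgeR adjusted p = 4.1e-22), and the fall in CD8 cells was -8.91 (SE 0.58) without and -6.19 (SE 1.00) with the probe signal. In CD4 cells the level was at least 2.24-fold lower on day 7, a call that was lost in 8 of 12 alternatives. An antisense gene, Slc6a19os, overlaps Slc6a19 and was not analysed here.

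Other amino acid carriers were low. Slc3a1, a partner subunit of cystine transport, fell on day 7 in both lineages, from 53.7, 60.9 and 142 to 3.2, 35.5 and 8.63 normalized counts in CD8 and from 68.1, 80.3 and 88.1 to 34.4, 24.6 and 7.21 in CD4 cells, calls lost in 4 of 12 alternatives in CD8 and 2 of 12 in CD4 cells. Slc7a4 had 7.93, 33.1 and 13.5 in CD8 control and 1.07, 0 and 0 in CD8 Flica-negative cells. In CD4 cells it had 38, 3.87 and 0.889 in control and 0 in all 3 Flica-negative libraries, and without CD4 control replicate 1 the fall was not called (edgeR adjusted p = 0.21, in a range of 0.00576 to 0.21 over its alternatives). Slc1a4, a carrier of small neutral amino acids, was higher in Flica-positive cells than in CD8 control, at 49.2, 73 and 53.8 against 13.2, 5.37 and 0, a call lost in 6 of 12 alternatives. Slc36a3os, the antisense RNA, rose from 21.2, 9.67 and 11.6 to 78.5, 46.9 and 103 in CD4 and from 27.3, 42.1 and 10.6 to 85.2, 125 and 80.3 in CD8 Flica-negative cells (log2 fold change 2.43, SE 0.60, edgeR adjusted p = 0.00432, and 1.85, SE 0.57).

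The sugar class held Slc2a8 and Slc2a6, glucose transporters that sit mostly on membranes inside the cell, and Slc45a3. Slc2a8 went from 142, 110.2 and 105 to 839, 858 and 835 normalized counts in CD4 cells and from 115, 88.7 and 179 to 352, 455 and 547 in CD8 Flica-negative cells, with 499, 344 and 554.9 in Flica-positive cells. Its CD4 libraries of day 7 lay close together and above every CD8 library. The rise was 2.83 (SE 0.23) in CD4 (edgeR adjusted p = 5.0e-07) and 1.83 (SE 0.35) in CD8 Flica-negative cells (edgeR adjusted p = 9.9e-04). Slc2a6 had 51.1, 125 and 107 in CD4 Flica-negative against 14.9, 29.9 and 18.1 in CD8 Flica-negative cells, a difference of 2.16 (SE 0.51, edgeR adjusted p = 0.00422). Flica-positive libraries held 48.1, 51.8 and 214, a rise of 2.31 (SE 0.76) over CD8 Flica-negative cells that fell to 1.25 without Flica-positive replicate 3. That call was lost in 7 of 12 alternatives, with adjusted p from 0.0115 to 0.23 over them (edgeR and DESeq2) and 0.0454 in the main edgeR fit. Slc45a3 was at 0 in all 6 Flica-negative libraries of both lineages and at 35.2, 85.9 and 77.7 in Flica-positive cells, at least 23.2-fold higher than in CD8 Flica-negative cells.

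Nucleoside and nucleobase carriers moved in opposite directions. Slc28a2b, a sodium-driven nucleoside carrier and close relative of Slc28a2, had 3255, 3236 and 3333 normalized counts in CD4 control and 4509, 4579.6 and 4873 in CD8 control. It fell to 324, 547 and 671 in CD4 Flica-negative, 284, 314 and 215 in CD8 Flica-negative and 312, 300.2 and 330.1 in Flica-positive libraries. All 9 day 7 libraries were far below the 6 controls. The fall was -2.67 (SE 0.25) in CD4 (edgeR adjusted p = 1.4e-06) and -4.10 (SE 0.20) in CD8 Flica-negative cells (edgeR adjusted p = 9.7e-08). Reads may have been split between Slc28a2b and its near copy, so the level is uncertain.

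Slc43a3, a purine nucleobase carrier, rose. It had 63.6, 75.4 and 83.6 normalized counts in CD4 control and 250.4, 323 and 472 in CD4 Flica-negative cells, then 70.5, 43.9 and 29.8 in CD8 control, 433, 615 and 698 in CD8 Flica-negative and 1036, 1038 and 1367 in Flica-positive libraries. The 3 CD8 groups did not overlap. Slc43a3 rose by 2.23 (SE 0.33) in CD4 and by 3.59 (SE 0.39) in CD8 Flica-negative cells on the log2 scale, and its further rise of 0.98 (SE 0.25) in Flica-positive cells was lost in 3 of 12 alternatives. Slc29a4, of the equilibrative nucleoside family and known to carry monoamines, went from 4.47, 10.6 and 0 to 89.9, 126 and 149 in CD4 and from 7.05, 12.5 and 20.2 to 180.04, 226 and 180.4 in CD8 Flica-negative cells, a rise of 4.58 (SE 0.81) and 3.88 (SE 0.50). Flica-positive libraries overlapped the Flica-negative range, at 162, 180.1 and 151.

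Of 16 genes of nucleotide metabolism 8 had rows, and 7 of the 8 were higher in both Flica-negative groups than in control, with none lower, beside 37.5% of all listed genes higher in CD8 and 31.1% in CD4 cells. Their summed level was 1441, 1360.3 and 1489 normalized counts in CD8 control, 6239, 9560.3 and 11574 in CD8 Flica-negative, 15446, 15746 and 14966 in Flica-positive, 1388, 1230.03 and 1347 in CD4 control and 4715, 4858 and 6203 in CD4 Flica-negative libraries, led by Rrm1, a subunit of ribonucleotide reductase. Of the nucleotide sugar family, the orphan carrier Slc35e4 rose in CD4 cells from 3.35, 6.77 and 12.5 to 171, 73.7 and 179 and in CD8 Flica-negative cells from 7.05, 17.9 and 32.7 to 216, 239 and 167, by 4.19 (SE 0.61) and 3.43 (SE 0.55) on the log2 scale. Slc35f5 was higher in Flica-positive cells than in control, at 41, 87.1 and 65.8 against 6.17, 14.3 and 0, a call lost in 6 of 12 alternatives.

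The 4 mitochondrial carriers split by direction. Slc25a24 and Slc25a23 both exchange ATP-magnesium for phosphate across the inner membrane. Slc25a24 had 217, 287 and 366 normalized counts in CD4 control and 89.9, 133 and 78.9 in CD8 control, and 1724, 1508 and 1589 in CD4 Flica-negative, 1362, 1562 and 1301 in CD8 Flica-negative and 1281, 1648 and 2251 in Flica-positive libraries. Slc25a23 had 964, 990.2 and 1225 in CD4 control and 250.4, 249 and 231 in CD4 Flica-negative libraries, and 508, 554 and 648 in CD8 control, 93.8, 103 and 123 in CD8 Flica-negative and 169, 113 and 245 in Flica-positive libraries. The former was higher in all 9 day 7 libraries than in any control and the latter lower. Slc25a24 rose by 2.47 (SE 0.23) in CD4 and 3.81 (SE 0.28) in CD8 Flica-negative cells, and the values of Slc25a23 were -2.12 (SE 0.21) and -2.42 (SE 0.28) on the log2 scale, each with an edgeR adjusted p of 2.9e-05 or below.

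Slc25a33, a carrier of pyrimidine nucleotides, rose from 86, 89.9 and 84.5 to 219.5, 206 and 306 normalized counts in CD4 and from 152, 82.4 and 121 to 657, 593 and 381 in CD8 Flica-negative cells (log2 fold change 1.49, SE 0.32, edgeR adjusted p = 0.00147, and 2.19, SE 0.34). Slc25a27, of the uncoupling protein family, fell from 197, 176 and 371 to 48.5, 116 and 60.9 and from 154, 192 and 224 to 56.5, 35.5 and 54.4 in the same groups (log2 fold change -1.73, SE 0.43, and -1.96, SE 0.40). None of the 4 mitochondrial carriers was called between CD8 cells with and without the probe signal by edgeR at an adjusted p of 0.05, beside 23.2% of all listed genes that were. Counts of genes encoded in mitochondrial DNA took 42.8% to 51.7% of the listed counts in Flica-positive, 15.3% to 16.2% in CD8 Flica-negative and 26.2% to 28.8% in CD8 control libraries, and their part in the carriers' scale was not tested.

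Among carriers of organic cations and zwitterions, Slc22a15 rose in both lineages. It had 27.3, 32.2 and 25 normalized counts in CD8 control, 557, 500.1 and 473 in CD8 Flica-negative, 701, 666 and 829.9 in Flica-positive, 63.6, 89.9 and 139.6 in CD4 control and 616, 751 and 785 in CD4 Flica-negative libraries. The day 7 libraries were all above both control groups, which were themselves apart. The rise was 4.17 (SE 0.32) in CD8 and 2.87 (SE 0.30) in CD4 Flica-negative cells (edgeR adjusted p = 1.5e-06 and 4.7e-06). The choline carrier Slc44a1 fell in both lineages, from 484, 548 and 509.6 to 168, 174 and 149.8 in CD4 and from 420.2, 424 and 544 to 108, 122 and 52.6 in CD8 Flica-negative cells (log2 fold change -1.65, SE 0.23, and -2.30, SE 0.37).

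Slc22a4, the carrier of the antioxidant ergothioneine, was at 0 in all CD8 control and CD8 Flica-negative libraries and at 45.7, 25.9 and 98.1 normalized counts in Flica-positive cells, at least 19.8-fold higher than in Flica-negative cells. Slc22a23 had 34, 45.9 and 88.5 against 3.2, 0.933 and 4.31 in Flica-negative cells. Slc22a17, a receptor for the neutrophil protein Lcn2, fell in CD8 cells from 51.1, 44.8 and 71.2 in control to 0, 2.8 and 1.73 in Flica-negative libraries. Flica-positive libraries held 0, 23.5 and 15.5, not called against control. In CD4 cells Slc22a17 fell from 36.8, 54.2 and 54.3 to 8.82, 23.4 and 6.41, a call lost in 7 of 12 alternatives.

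The remaining class held carriers of peptides, vitamins and fatty acids. Slc15a3, a peptide and histidine carrier of lysosomes, had 21.2, 38.7 and 3.56 normalized counts in CD4 control and 436, 518 and 469 in CD4 Flica-negative cells, then 34.4, 0.895 and 0 in CD8 control, 194, 246 and 275 in CD8 Flica-negative and 317, 396 and 396 in Flica-positive libraries. It was scarce before transplantation and high in every day 7 library, with a rise of 4.49 (SE 0.55) in CD4 (edgeR adjusted p = 1.7e-05) and 4.31 (SE 1.05) in CD8 Flica-negative cells (edgeR adjusted p = 0.00438). Tmem132a, on the opposite strand of the same region, was listed in the same 3 tables.

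The riboflavin carrier Slc52a3 followed the same course, from 21.2, 36.7 and 40.9 to 294, 237 and 339.6 normalized counts in CD4 and from 29.1, 34.9 and 69.2 to 557, 592 and 478 in CD8 Flica-negative cells, with 529, 477 and 375 in Flica-positive cells. Its rise was 3.13 (SE 0.37) and 3.61 (SE 0.39) on the log2 scale in the 2 Flica-negative groups. The lysosomal membrane protein Slc49a4 fell, from 1092, 1182 and 1010.4 to 302, 326 and 364 in CD4 and from 929, 895 and 848 to 198, 181 and 166 in CD8 Flica-negative cells (log2 fold change -1.73, SE 0.20, and -2.29, SE 0.23). Neither gene overlapped between day 0 and day 7 in either lineage.

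Fatty acid transport proteins, which couple uptake to activation by coenzyme A, were represented by Slc27a3, Slc27a4, Slc27a5 and Slc27a6. Slc27a4 had 395, 447 and 515 normalized counts in CD8 control, 1446, 1326 and 968 in CD8 Flica-negative and 1449, 2327 and 2941 in Flica-positive libraries, and 374, 545 and 546 in CD4 control and 531, 531 and 374 in CD4 Flica-negative libraries. The CD8 libraries of day 7 stood above all others, and the CD4 groups overlapped. The rise in CD8 Flica-negative cells was 1.46 (SE 0.24) on the log2 scale (edgeR adjusted p = 3.2e-04), and the CD4 value was -0.03 (SE 0.24, edgeR adjusted p = 0.932). Slc27a6 was found in CD8 control at 54.6, 59.1 and 94.2 and at 9.78 or below in every other library. Slc27a3 and Slc27a5 were lower in Flica-positive cells than in control, and Slc23a3, an orphan of the ascorbate family, in CD8 Flica-negative cells, with the call of Slc27a5 lost in 4 of 11 and that of Slc23a3 in 7 of 12 alternatives.

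Beside the genes that fell on day 7, the 11 listed of 12 B cell markers fell too in every comparison with control, beside 26.5% of all listed genes called lower by edgeR in CD4 Flica-negative, 29% in CD8 Flica-negative and 23.9% in Flica-positive cells. They summed to 11492, 8745 and 9589 normalized counts in CD4 control and 12439, 8624 and 8835 in CD8 control, against 424, 675 and 714 in CD4 Flica-negative, 413, 453 and 396 in CD8 Flica-negative and 702, 1049 and 927 in Flica-positive libraries, led by Cd22. Ms4a1 was at 0 in all 3 CD8 Flica-negative libraries and Fcer2a in all 3 Flica-positive libraries. Of 19 T cell markers 2 had rows, Cd8a and Tcf7, a factor of resting T cells. Tcf7 had 37628, 33086 and 36887 in CD4 control and 5926, 8016 and 8511 in CD4 Flica-negative libraries. In CD8 cells Tcf7 had 30058, 27184 and 28598 in control, 1678, 1354 and 1537 in Flica-negative and 917, 675 and 673 in Flica-positive libraries. Cd8a fell less there, from 21642, 18353 and 19250 to 13841, 14967 and 12817 and then 11437, 11492 and 9348. In CD4 libraries Cd8a held 117 or fewer. Both were called lower in every comparison with control, and Tcf7 alone in Flica-positive against Flica-negative cells. These libraries, too, came from cells sorted as CD4 or CD8 T cells. The part of B cells in the falls of Slc12a7, Slc28a2b and Slc16a5 was not tested.

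Of the 16 carriers that rose in CD4 Flica-negative cells 15 (93.8%) also rose in CD8 Flica-negative cells, which is 71.4% of the 21 that rose there, beside 86.8% and 72% over all listed genes. Of the 14 that fell in CD4 cells 12 (85.7%) also fell in CD8 cells, which is 70.6% of 17, beside 76.2% and 69.6%, and none was called in opposite directions, beside 19 of all listed genes. The exception among rises in CD4 cells was Slc2a6, and those called in CD8 cells alone were Slc27a4, Slc31a1, Slc6a13, Slc8a1, Slc9a3r2 and Slco4c1. The difference of the 2 responses was tested itself by the interaction term of an edgeR quasi-likelihood fit with Benjamini-Hochberg adjustment. It was called for 4 carriers beside 10.2% of all listed genes, with 2 higher and 2 lower (3.28% each), beside 5.65% and 4.6%. Without CD4 Flica-negative replicate 1 it was called for 7 carriers, without CD8 control replicate 1 for 8, and with TMM for 2.

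The responses of Slc27a4 and Slc25a24 were more positive in CD8 than in CD4 cells, with -1.49 (SE 0.34, edgeR adjusted p = 0.00794) and -1.34 (SE 0.34, edgeR adjusted p = 0.0154) for the CD4 minus the CD8 response on the log2 scale. Slc28a2b and Slc12a7 fell less in CD4 cells, with 1.43 (SE 0.31, edgeR adjusted p = 0.00585) and 0.87 (SE 0.19, edgeR adjusted p = 0.00573). For Slc25a24, Slc12a7 and Slc28a2b the control lineages already differed. With TMM the calls of Slc25a24 and Slc12a7 were lost, and over all alternatives their adjusted p ranged from 0.00595 to 0.0815 and from 0.00372 to 0.0901 (edgeR quasi-likelihood test). Slc31a1, Slc6a13, Slc8a1, Slc9a3r2, Slco4c1 and Slc2a6 did not pass the test of the difference.

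**Figure D3:**
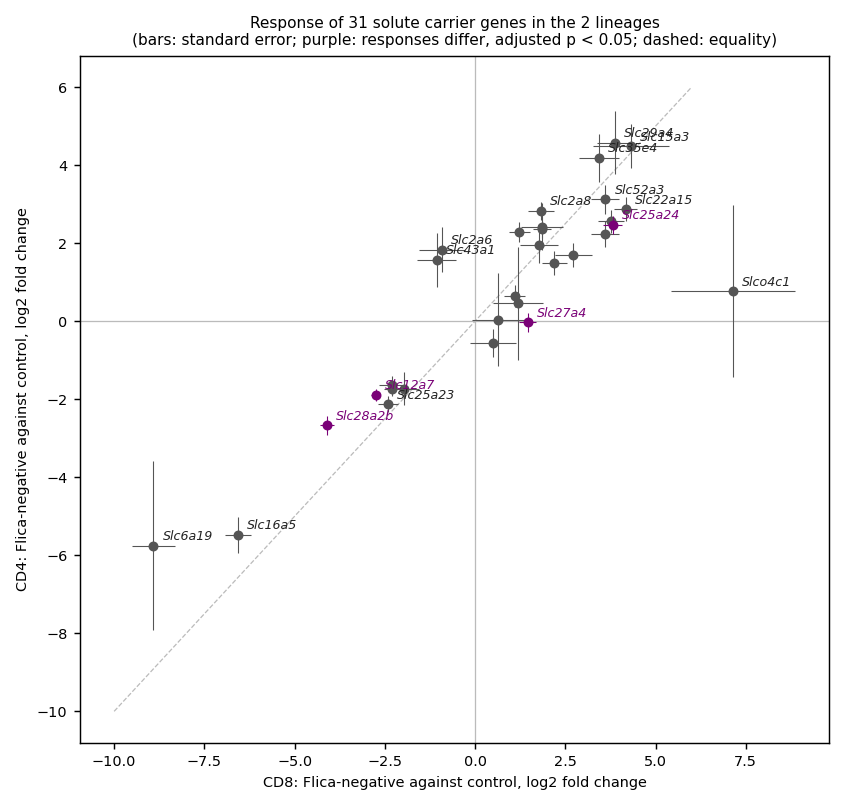
Log2 fold change of Flica-negative cells against control in CD8 (horizontal axis) and CD4 cells (vertical axis) for the 31 carriers averaging 50 normalized counts or more, with bars of 1 standard error and a dashed line of equality. The 4 genes in purple, Slc12a7, Slc25a24, Slc27a4 and Slc28a2b, passed the test of a difference between the responses.

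Between the control lineages, 8 carriers were called beside 12% of all listed genes, with 3 higher (4.92%) and 5 lower (8.2%) in CD4 than in CD8 cells, beside 6.5% and 5.45%. Slc22a15, Slc25a24 and Slc25a23 were higher in CD4 cells, by 1.79 (SE 0.49), 1.53 (SE 0.29) and 0.89 (SE 0.18) on the log2 scale. Slc6a19, Slc27a6, Slc43a1, Slc12a7 and Slc28a2b were lower, with Slc12a7 at -0.79 (SE 0.14) and Slc28a2b at -0.51 (SE 0.15). The calls of Slc43a1 and Slc28a2b were lost in 5 of 12 alternatives each. Those of Slc25a23 and Slc27a6 were lost in 1 of 12, the fit of all 5 groups, and that of Slc22a15 in 1 of 12, the fit without CD4 control replicate 3.

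Between Flica-negative cells of day 7, 11 carriers were called beside 22% of all listed genes, with 6 higher (9.84%) and 5 lower (8.2%) in CD4 than in CD8 cells, beside 9.66% and 12.3%. Slc2a6, Slc25a23, Slc15a3, Slc28a2b, Slc2a8 and Slc49a4 were higher in CD4 cells. Of these calls Slc2a6, Slc15a3 and Slc2a8 were lost in the fit of all 5 groups, with adjusted p from 2.6e-04 to 0.0668, 4.2e-05 to 0.432 and 1.2e-06 to 0.0528 over their alternatives (edgeR and DESeq2), Slc28a2b in 3 of 12 and Slc49a4 in 4 of 12 alternatives. In the other direction Slc27a4 was lower with a log2 fold change of -1.38 (SE 0.22), Slc25a33 with -1.15 (SE 0.27) and Slc52a3 with -0.90 (SE 0.24), the last lost in 3 of 12 alternatives. Slc8a1 and Slc6a9 were at 0 in all 3 CD4 Flica-negative libraries. Slc8a1 had 9.59, 15.9 and 8.63 and Slc6a9 10.7, 23.3 and 11.2 normalized counts in CD8 Flica-negative cells, at least 4.06-fold and at least 5.38-fold more against the floor of 3 counts a library, and these calls were lost in 7 of 12 and 2 of 12 alternatives. Without replicate 2 of either group, 7 carriers were called.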

How the data were processed

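The authors deposited 4 gene tables with raw counts of all 15 libraries, and per the submitters' notes reads were aligned with STAR 2.7.1a to GRCm38 and analysed with DESeq2. The counting tool is not given in the sources used here. The mean signal column, as deposited, averages each gene's counts after division by the authors' size factors, which were recovered from it. The authors' columns of log2 fold change, its standard error, Wald statistic, p-value and adjusted p-value, and 4 enrichment tables, were not used. Each table lists only genes past an adjusted p of 0.05 and a limit on fold change.

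Counts of the 4567 listed genes were fitted for each pair of groups with edgeR 4.0.16 (R 4.3.3, limma 3.58.1, quasi-likelihood F-test, Benjamini-Hochberg over 4567 genes, threshold 0.05), and SE is the absolute log2 fold change divided by the square root of F. The difference between responses was an interaction term over 4 groups. The scripts were tested on simulated data. Listed counts summed to 2143579 to 3184674 a library, and to 7310375 to 11046043 in Flica-positive libraries, from partial tables. Alternatives were TMM, DESeq2 1.42.0 size factors, its Wald test, a filter at a mean of 10 normalized counts, 1 fit of all 5 groups, a replicate block, leaving out each library and an adjusted p below 0.01.

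Carriers with full statistics were the 8 largest rises and falls for the first 4 comparisons, the 4 largest for the others (adjusted p below 0.05, averaging 50 normalized counts or more), and carriers from a list of known T cell, iron, lactate and nucleoside transporters. Others are named to account for all 61 and were chosen after their values were seen. The members, lists and this rule were chosen with earlier results of these data known. Lists covered glycolysis, transporter partners, amino acid and nucleotide metabolism, and markers of 9 cell types. Groups with no count were bounded against 3 counts a library, on the scale of the authors' size factors. Gene positions came from GENCODE M21 (GRCm38), where 61 of 61 carriers were found, and promoters from RefSeq. Tables and figures used Python 3.11.15, numpy 2.4.6, pandas 2.3.3, scipy 1.17.1 and matplotlib 3.10.9.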

Additional observations from a re-analysis of the deposited data

Results flagged for a closer look

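The responses of 4 carriers to transplantation differed between CD4 and CD8 Flica-negative cells by a test of the difference itself, an edgeR interaction term with Benjamini-Hochberg adjustment. The CD4 minus the CD8 log2 fold change was -1.49 for Slc27a4 (adjusted p = 0.00794), -1.34 for Slc25a24 (adjusted p = 0.0154), 1.43 for Slc28a2b (adjusted p = 0.00585) and 0.87 for Slc12a7 (adjusted p = 0.00573). Slc27a4 rose in CD8 cells alone. Slc25a24 rose and Slc28a2b and Slc12a7 fell in both lineages, more in CD8 cells, and day 0 levels of these 3 differed between the lineages. With TMM over the listed genes Slc25a24 and Slc12a7 missed the threshold, with adjusted p from 0.00595 to 0.0815 and from 0.00372 to 0.0901 over all alternatives, while those of Slc27a4 lay from 0.00511 to 0.0457 and those of Slc28a2b from 4.8e-04 to 0.0297 (edgeR).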

How the results depend on the processing

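Of 87 carrier results chosen by size or name, 65 kept call and direction in every alternative run, and 22 missed the threshold in at least 1. Of their 1054 alternative values 970 kept the call, 84 missed the threshold and 0 changed direction. Other calls were not tallied, and the Slc25a33 value given above changed sign. The cause of the changes below was not tested, but a stricter threshold cannot add calls.

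Against Flica-negative cells, Flica-positive cells had 20 carriers called, and 10 at an adjusted p below 0.01, all 10 of them higher. The 1 lower carrier became 4 with TMM, 4 with DESeq2 size factors, 4 in a fit of all 5 groups, 2 with the DESeq2 Wald test, 2 among genes averaging 10 counts or more and 0 at an adjusted p below 0.01. Leaving out a library gave 10 to 17 called, 10 to 17 higher (10 without CD8 Flica-negative replicate 2) and 0 to 0 lower. The 32 higher carriers against CD8 control became 19 with TMM and 17 with DESeq2 size factors (2137 of all listed genes became 1232 and 1155), and the 14 lower in CD4 Flica-negative cells against control became 8 at an adjusted p below 0.01.

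Between Flica-negative cells of the lineages, the fit of all 5 groups called 6, with 3 higher and 3 lower, and an adjusted p below 0.01 left 6, with 2 lower. Leaving out a library gave 7 to 11 called (7 without CD4 or CD8 Flica-negative replicate 2) and 2 to 6 lower. Between the controls, the fit of all 5 groups called 4, with 2 lower, and an adjusted p below 0.01 left 3 lower. Leaving out a library gave 3 to 4 lower (3 without CD4 or CD8 control replicate 2). For the difference between the responses, TMM called 2, with 1 higher and 1 lower. Leaving out a library gave 4 to 8 called (7 without CD4 Flica-negative replicate 1 and 8 without CD8 control replicate 1), 2 to 4 higher and 2 to 5 lower.

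Some calls were lost without 1 library (edgeR adjusted p in parentheses). For Flica-positive against Flica-negative cells these were Slc22a23 without Flica-negative 2 (0.0531), Slc24a3 without Flica-positive 2 or Flica-negative 1, 2 or 3 (0.0618 to 0.0708), Slc27a4 without Flica-positive 2 or 3 or Flica-negative 2 or 3 (0.116 to 0.141), Slc2a6 without Flica-positive 3 or Flica-negative 1, 2 or 3 (0.0882 to 0.23), Slc31a1 without Flica-positive 3 or Flica-negative 1 or 2 (0.0522 to 0.0787), Slc38a5 without Flica-positive 1 or 2 or Flica-negative 1, 2 or 3 (0.0597 to 0.129), Slc39a4 without any 1 library (0.0522 to 0.174), Slc43a1 without Flica-positive 1 or Flica-negative 2 (0.0609 to 0.0832), Slc43a3 without Flica-negative 2 (0.0533) and Slc8a1 without Flica-positive 2 or 3 or Flica-negative 1, 2 or 3 (0.054 to 0.118). For Flica-positive cells against control they were Slc1a4 without Flica-positive 1 or 2 or control 2 (0.0668 to 0.117), Slc26a1 without Flica-positive 1 or control 1, 2 or 3 (0.0572 to 0.0804), Slc27a5 without Flica-positive 1 or 2 or control 1 (0.0618 to 0.0765), Slc31a2 without Flica-positive 2 (0.0569), Slc35f5 without Flica-positive 1 or 2 or control 1 (0.0579 to 0.113), Slc6a20a without Flica-positive 1 or control 1, 2 or 3 (0.0686 to 0.115), Slc9a3r2 without Flica-positive 1 or 2 or control 1, 2 or 3 (0.0554 to 0.0752) and Slc9a5 without the same libraries (0.0525 to 0.112), and for CD8 Flica-negative cells against control Slc23a3 without Flica-negative 2 or 3 or control 2 or 3 (0.0618 to 0.13), Slc27a3 without Flica-negative 2 or control 3 (0.0678 to 0.08), Slc36a3os without Flica-negative 2 (0.0598), Slc3a1 without Flica-negative 1 or 3 or control 3 (0.0523 to 0.0737), Slc8a1 without Flica-negative 2 (0.051), Slc9a3r2 without Flica-negative 1 or control 1 (0.0546 to 0.0883) and Slc9a5 without Flica-negative 3 (0.0656). In CD4 cells they were Slc10a1 without Flica-negative 2 or control 1 or 2 (0.0606 to 0.105), Slc22a17 without Flica-negative 1 or 3 or control 1, 2 or 3 (0.053 to 0.102), Slc26a1 without Flica-negative 2 or 3 or control 1 or 3 (0.0537 to 0.101), Slc2a6 without Flica-negative 2 (0.0712), Slc3a1 without control 2 (0.0507), Slc6a19 without any 1 library (0.0542 to 0.106) and Slc7a4 without Flica-negative 1 or 2 or control 1 (0.0577 to 0.21). Between the lineages on day 7 they were Slc28a2b without CD4 Flica-negative 2 or 3 or CD8 Flica-negative 3 (0.0828 to 0.13), Slc49a4 without CD4 Flica-negative 2 or 3 or CD8 Flica-negative 2 or 3 (0.0712 to 0.0806), Slc52a3 without CD4 Flica-negative 2 or CD8 Flica-negative 2 (0.0584 to 0.0752), Slc6a9 without CD8 Flica-negative 2 (0.0832) and Slc8a1 without any 1 library (0.054 to 0.118), and on day 0 Slc22a15 without CD4 control 3 (0.11), Slc28a2b without CD4 control 1 or 2 or CD8 control 2 or 3 (0.0505 to 0.0657) and Slc43a1 without CD4 control 2 or 3 or CD8 control 1 or 2 (0.0971 to 0.303).

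Replicate numbers are shared between groups, and their meaning is not given. Stained spleen cells of a pool were sorted into groups, so libraries of 1 sort may share mice. Over genes with counts in all 6 libraries, deviations of same-numbered Flica-positive and Flica-negative libraries correlated at 0.0976 to 0.175, CD4 and CD8 Flica-negative libraries at 0.0295 to 0.168 and the controls at 0.0374 to 0.261. In these 3 comparisons each of the 6 libraries correlated best with its own number. Over genes averaging 10 normalized counts or more the correlations were 0.0392 to 0.128, 0.0282 to 0.113 and 0.0267 to 0.0963 in that order. There 5 of the 6 libraries correlated best with their own number in the first comparison, and 6 in each of the others. With the replicate number as a block, carriers higher and lower were 15 and 2 for Flica-positive against Flica-negative cells, 23 and 10 against CD8 control, 19 and 15 for CD8 and 16 and 10 for CD4 Flica-negative cells against control, 9 and 5 between the Flica-negative groups, 3 and 5 between the controls and 2 and 2 for the difference between the responses.

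Of the 61 carriers 9 had a mean below 10 normalized counts, so small differences in them were not detectable. Floors cover counting error only, and spread was measured between pools, not mice.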
